A study of Mus musculus with 5 samples.

Results

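The 10 genes described here are Cd74, H2-Aa, H2-Ab1, H2-Eb1, Lyz2, C1qa, C1qb, C1qc, Apoe and Cd68, transcripts of macrophages and of antigen presentation on MHC class II. They were chosen by symbol from the 23284 gene symbols counted in each library, and all 10 had a row in all 5 libraries. Poly(A) RNA had been sequenced from primary acinar cells, which make and secrete the digestive enzymes of the pancreas, isolated from C57BL/6 mice aged 8 weeks. The mice behind the 3 knockout libraries had the genotype Arid1afl/fl;p48-Cre, in which the floxed Arid1a gene, encoding a DNA-binding subunit of the SWI/SNF chromatin remodeller, is cut by Cre. Those behind the 2 control libraries had the genotype p48-Cre, so both groups carry the Cre driver. p48 is Ptf1a, a transcription factor of pancreatic epithelium, and its Cre is not active in the blood lineages from which macrophages, dendritic cells and lymphocytes arise. Minced pancreas was digested, strained and rested in serum-containing medium, per the labels' protocols, which name no sorting or antibody step. The labels number the libraries without saying whether each came from its own animal, so the p-values rest on library-to-library spread that may be technical rather than between animals.

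Macrophages reside in the pancreas between acini and around islets, where they clear debris and respond to injury. Dendritic cells, B cells and many macrophages display peptides from engulfed protein on MHC class II, a pair of alpha and beta chains that the invariant chain Cd74 escorts through the secretory pathway. The transactivator Ciita switches these genes on together, and interferon gamma can induce it in other cells, epithelial cells among them. C1q, built from the products of C1qa, C1qb and C1qc, starts the classical complement cascade and in many tissues comes mainly from macrophages. Lyz2 encodes lysozyme of myeloid cells, Cd68 a lysosomal glycoprotein of phagocytes, and Apoe a lipid-carrying apolipoprotein that macrophages and several other cell types secrete.

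Class II genes are known to share a set of promoter motifs, the S, X and Y boxes, at which Ciita is recruited, and for this reason the upstream sequence of a pair of the chain genes is shown. In RefSeq's build GRCm38.p6, 7 of the 10 genes had a promoter entry. The 250 bases before the start of H2-Aa lie at chr17:34287824-34288073 on the minus strand and those of H2-Eb1 at chr17:34305617-34305866 on the plus strand. Capitals mark exact matches to the Y box CTGATTGG and to the X2 box TGACGTCA, searched on both strands and without overlap between the motifs.
H2-Aa: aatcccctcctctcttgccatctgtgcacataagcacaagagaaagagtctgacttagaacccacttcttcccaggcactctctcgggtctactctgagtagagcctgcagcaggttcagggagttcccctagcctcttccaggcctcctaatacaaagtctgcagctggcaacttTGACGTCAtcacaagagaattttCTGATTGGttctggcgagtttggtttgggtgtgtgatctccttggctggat
H2-Eb1: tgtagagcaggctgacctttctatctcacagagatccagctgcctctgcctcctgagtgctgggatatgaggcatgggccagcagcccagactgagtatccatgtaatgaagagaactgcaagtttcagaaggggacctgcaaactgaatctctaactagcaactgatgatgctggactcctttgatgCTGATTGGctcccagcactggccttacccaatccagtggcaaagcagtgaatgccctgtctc
The Y box began 51 bases before the start of H2-Aa and 62 bases before that of H2-Eb1, and the X2 box 74 bases before that of H2-Aa. Among 32851 promoters of the same length, 3.83% held the Y box and 1.55% the X2 box. Neither motif was found in this window of Lyz2, Cd68, C1qb, C1qc or any of the 3 Apoe starts.

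Depth separated the libraries as genotype did. Rn45s, the ribosomal RNA precursor, took 6.78% to 10.9% of the counts in the knockouts and 72.6% and 82.2% in the controls. Lars2, a mitochondrial leucyl-tRNA synthetase, took 0.535% to 0.926% in the knockouts and 4.23% and 5.61% in the controls. Without both genes, the knockout libraries held 3155357 to 3568906 counts and the control libraries 67514 and 72006. Values are given in CPM, the counts scaled to a common total after Rn45s and Lars2 are left out, so that 1 count stood for 0.280 to 0.317 CPM in the knockouts and for 14.8 and 13.9 CPM in the controls. The floor of detection, 3 counts over both controls together, was 21.5 CPM. Intervals and floors cover counting error only. Control reads came in clumps, since of 793 genes with 8 to 11 control counts 51.6% had all of them in 1 control, where reads falling independently would give 0.426%. Arid1a itself had 44, 121 and 42 counts in the knockouts and 0 and 3 in the controls, a pooled CPM ratio of 0.956 (exact 95% interval 0.323 to 4.67), and a count over the whole gene does not check the genotype. Genotype and library quality cannot be told apart in any value below. In such bulk RNA, fewer cells of a type and less RNA per cell cannot be told apart either.

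The chains of MHC class II were seen in every knockout library and in neither control. H2-Aa, the alpha chain of the class II molecule I-A, had 25.4, 77.6 and 15.8 CPM in knockouts 1, 2 and 3 and no count in either control. H2-Ab1, its beta chain, had 23.8, 65.0 and 27.2 CPM in the knockouts and no control count. H2-Eb1, the beta chain of I-E, whose alpha chain C57BL/6 mice do not make, had 28.2, 74.5 and 25.7 CPM in the knockouts and no control count. The 3 genes thus stood at similar CPM within a library, with knockout 2 highest, and the groups did not overlap. The knockout means were 39.6 ± 33.3, 38.7 ± 22.9 and 42.8 ± 27.5 CPM (SD, n = 3), which is at least 1.84-fold, 1.80-fold and 1.99-fold higher than the control floor. At the level of the lowest knockout the controls would have held 2.21, 3.32 and 3.59 counts of them, so the depth of the controls is close to the limit for each gene alone. Summed, the 3 chains had 77.3, 217 and 68.8 CPM in the knockouts and 0 in both controls, where the level of knockout 3, the lowest, would have given 9.59 counts. Knockout 3 was thereby at least 3.20-fold higher than the control floor for the sum, a bound that counts reads as independent.

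None of the 3 chains passed the test across all genes, edgeR's quasi-likelihood test with Benjamini-Hochberg adjustment, with adjusted p = 0.397 for H2-Aa, 0.400 for H2-Ab1 and 0.377 for H2-Eb1. The test took in 8291 genes after a filter on low counts and called 16 (0.193%) higher and 133 (1.6%) lower in the knockout. Of the 7 members that passed the filter it called 0, and 1 had an unadjusted p under 0.05, H2-Eb1 with 0.0474. Over all 8291 tested genes, 1072 had an unadjusted p under 0.05 in the same test. The outcome depended on the tool and scaling. DESeq2 called H2-Aa, H2-Ab1, H2-Eb1 and Apoe higher (adjusted p = 0.0252, 0.0252, 0.0193 and 0.0173), where it called 6.75% of all genes higher. TMM scaling, which trims the most extreme genes before it sets the library factors, raised the median log2 fold change of all tested genes by 1.70 and called H2-Ab1 and H2-Eb1 higher (adjusted p = 0.0498 and 0.0483, edgeR) beside 1.77% of all genes, with H2-Aa just outside at 0.05001. limma-voom called 0 members, and 0 had an unadjusted p under 0.05. A lack of overlap was common among the tested genes: 35.6% had every knockout above both controls and 33.5% had no control count. Of the 7 tested members it was 3 in either count. A gene without control counts could pass the filter only through its knockout counts, which shapes both shares and the members' count. Lyz2, Cd68 and C1qc had no control count either and failed the filter, so 6 of all 10 members had none.

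**Figure D1:**
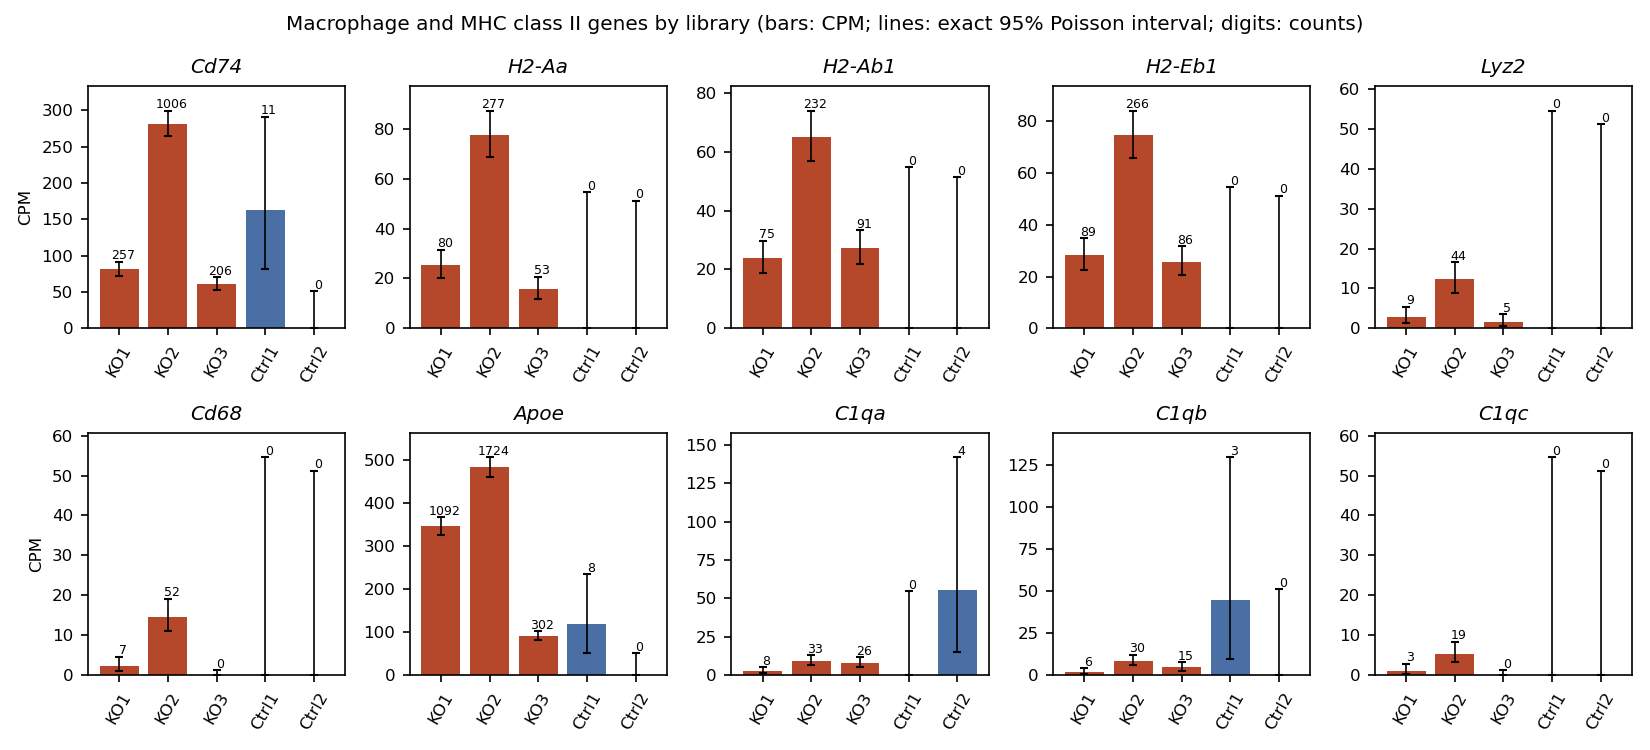
CPM of each of the 10 genes (vertical axis, a scale of its own for each gene) in knockout libraries 1 to 3 (KO, red) and control libraries 1 and 2 (Ctrl, blue); lines are exact 95% Poisson intervals and digits the counts. Knockout 2 is the highest knockout for all 10 genes, and the intervals of controls with 0 counts, up to 54.6 and 51.2 CPM, reach above every knockout value of Lyz2, Cd68 and C1qc and above knockouts 1 and 3 for H2-Aa, H2-Ab1 and H2-Eb1.

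Cd74, the invariant chain, did have control reads, all of them in 1 library. It stood at 81.4, 282 and 61.6 CPM in the knockouts and at 163 and 0 CPM in the controls, from 11 counts in control 1 and none in control 2. Control 1 thus lay above knockouts 1 and 3, and the groups overlapped. The pooled CPM ratio was 1.85 (exact 95% interval 1.03 to 3.71), and the log2 fold change of 0.81 ± 1.22 (SE) did not pass the test (adjusted p = 0.708, edgeR). Its sign turned to -0.20 without control 2 and to -0.18 without knockout 2. In control 1 the 11 counts of Cd74 stood beside no count of the 3 chains, whereas knockouts 1, 2 and 3 had 3.16, 3.89 and 2.69 counts of Cd74 for each count of a chain on average.

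Apoe was the most abundant member per length and showed the same split between the controls. It had 346, 483 and 90.3 CPM in the knockouts and 118 and 0 CPM in the controls, from 8 counts in control 1 and none in control 2. Control 1 lay above knockout 3, so the groups overlapped. The pooled CPM ratio of 5.40 had an exact 95% interval of 2.74 to 12.5, and the log2 fold change of 2.38 ± 1.22 (SE) did not pass the test (adjusted p = 0.389, edgeR). Without control 1, which leaves a control group with no Apoe count, Apoe passed (adjusted p = 0.0329, edgeR, where 0.17% of all genes were called higher). The lone control was then assumed to vary like the knockouts.

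Of the C1q genes, which neighbour each other in the genome, C1qa and C1qb had lower mean CPM in the knockouts than in the controls, on 7 control counts in all and without passing the test, while C1qc had no control count. C1qa had 2.54, 9.25 and 7.77 CPM in the knockouts and 0 and 55.6 CPM in the controls, from 4 counts in control 2. C1qb had 1.90, 8.41 and 4.48 CPM in the knockouts and 44.4 and 0 CPM in the controls, from 3 counts in control 1. A single control count weighs more than the highest knockout value of either gene, so no control value between 0 and that range could be seen. Their log2 fold changes were -2.10 ± 1.57 and -2.13 ± 1.65 (SE; adjusted p = 0.575 and 0.582, edgeR), and the pooled CPM ratios were 0.232 (exact 95% interval 0.0865 to 0.877) and 0.236 (0.0762 to 1.18). Each turned to a positive sign without the control that held its reads, which left a lone control with no count of the gene. C1qc had 3, 19 and 0 counts in the knockouts and none in the controls.

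Lyz2 and Cd68, the plainest phagocyte genes among the 10, were scarce in all knockout libraries. Lyz2 had 2.85, 12.3 and 1.49 CPM in the knockouts, from 9, 44 and 5 counts, and no control count. Cd68 had 2.22, 14.6 and 0 CPM in the knockouts, from 7, 52 and 0 counts, and no control count. Both stood below the control floor in every knockout, as C1qc did, so a difference between the groups was not detectable at this depth. These 3 genes also failed the filter on low counts. Of the words of 50 bases in Lyz2 transcripts, 15.4% also occur in those of its neighbour Lyz1, the lysozyme of intestinal Paneth cells, and its counts are uncertain to that extent. Lyz1 had 1, 10 and 5 counts in the knockouts and 0 and 0 in the controls. H2-Eb1 overlaps an antisense gene, Gm20513, from which its reads cannot be told apart in a library that does not mark strand.

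Per kilobase of exon, the knockout mean levels were in the order Apoe (143 CPM per kb), Cd74 (84.4), H2-Eb1 (22.0), H2-Ab1 (15.1), H2-Aa (10.4), C1qa (6.27), C1qb (4.53), Cd68 (4.45), Lyz2 (4.22) and C1qc (1.08). The coefficient of variation over the knockouts ran from 54.1% for C1qa to 140% for Cd68. The ranges of each pair of neighbours in this order overlapped over the 3 knockouts, in which knockout 2 was high for every gene. Compared within a library, 6 of the 9 neighbouring pairs kept their order in all 3 knockouts. Cd74 stood at 48.5, 168 and 36.7 CPM per kb in knockouts 1, 2 and 3, above H2-Eb1 with 14.5, 38.3 and 13.2. Order was not kept between H2-Aa and C1qa, between C1qb and Cd68, or between Cd68 and Lyz2. Within the knockouts, class II genes, Cd74 included, made up 30.8%, 48.4% and 55.6% of the counts of the 10 genes in libraries 1, 2 and 3, and Apoe 67.2%, 46.8% and 38.5%.

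Knockout 2 was rich in these transcripts and knockout 3 poor, and most other genes showed the same order. The 10 genes summed to 515, 1032 and 234 CPM in knockouts 1, 2 and 3 and to 326 and 55.6 CPM in the controls, or 594 ± 405 CPM in the knockouts (SD, n = 3) and 191 ± 191 CPM in the controls (SD, n = 2). Knockout 3 lay below control 1. The ratio of the group means was 3.11, which became 10.7 without control 1 and 1.82 without control 2. Among the knockouts, library 2 was 4.40-fold above library 3 (exact 95% counting interval 4.08 to 4.76) and 2.00-fold above library 1. Knockout 2 was the highest knockout for 10 of the 10 genes, against 90.2% of the 9459 genes with at least 20 knockout counts. Knockout 3 was the lowest for 7 of 10, against 80.5%. Knockout 2 stood at least 2-fold above both other knockouts for 7 of 10, against 44.6%. The median gene was 1.99-fold higher in knockout 2 than in knockout 1 and 4.31-fold higher than in knockout 3. The spread of the summed level lay close to that of the median gene, but the sum weights genes by abundance. Apoe alone made up 67.2%, 46.8% and 38.5% of the counts in knockouts 1, 2 and 3. Without Apoe the sums were 169, 549 and 144 CPM, with knockout 2 then 3.81-fold above knockout 3 and further above knockout 1 than the median gene.

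The share of digestive enzymes ran opposite to the 10 genes among the knockouts. The 38 genes of the enzyme list took 75.0%, 63.5% and 84.0% of the counts in knockouts 1, 2 and 3 and 63.9% and 67.4% in the controls. With the enzymes left out of the totals too, the 10 genes summed to 2065, 2828 and 1466 CPM in the knockouts and 901 and 170 CPM in the controls. On that scale knockout 2 was 1.93-fold above knockout 3 and 1.37-fold above knockout 1. Every knockout sum then lay above both controls. This rescaling raises every gene of a library by the same factor. The factor was largest in knockout 3, where genes outside the list took 16.0% of the counts, against 36.1% and 32.6% in the controls. The share of all genes that separate the groups on this scale was not counted. The coefficient of variation over the knockouts was 32.2% on that scale and 68.1% with the enzymes kept in the totals.

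**Figure D2:**
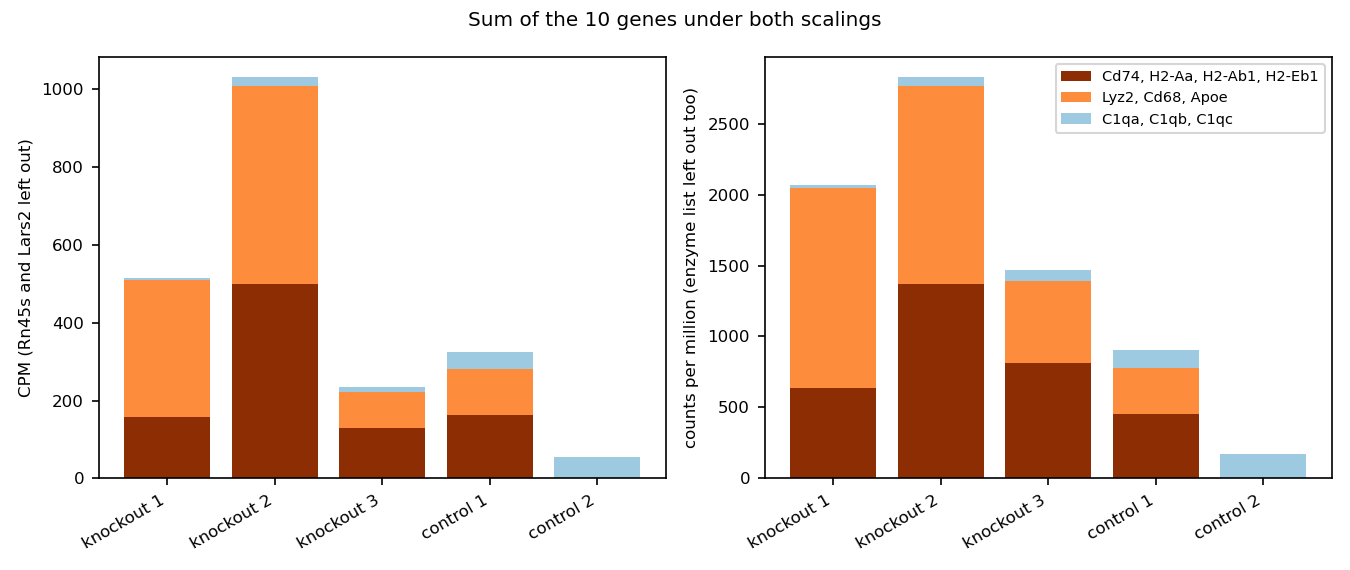
Stacked sums of the 10 genes in knockout libraries 1 to 3 and control libraries 1 and 2, as CPM of the totals without Rn45s and Lars2 (left) and of the totals without the enzyme list too (right); colours are class II genes with Cd74, then Lyz2, Cd68 and Apoe, then the C1q genes. Knockout 2 is 4.40-fold above knockout 3 on the left and 1.93-fold on the right, and control 2 holds C1q alone.

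Every member but Apoe was higher in knockout 2 than in knockout 1 by more than the median gene. The counting intervals of C1qa, C1qb and C1qc reached below that median. In the comparison with knockout 3 the members lay on both sides of the median gene. Cd74 was 3.46-fold higher in knockout 2 than in knockout 1 (exact 95% counting interval 3.01 to 3.98), above the median of 1.99, and H2-Aa was 3.06-fold higher (2.38 to 3.98). Apoe was 1.40-fold higher (1.29 to 1.51), below the median. Against knockout 3 the order changed. Beside the median of 4.31, knockout 2 was higher by 5.35-fold for Apoe (4.73 to 6.07), 4.90-fold for H2-Aa (3.64 to 6.70) and 4.58-fold for Cd74 (3.94 to 5.34). H2-Eb1 was 2.90-fold (2.27 to 3.74) and H2-Ab1 2.39-fold (1.87 to 3.08) higher. C1qa differed least between these libraries, with 1.19-fold (0.690 to 2.07). Cd68 had 52 counts in knockout 2 and 0 in knockout 3, a ratio of over 12.7 by the lower limit of the interval. Between knockouts 1 and 3, Apoe was 3.83-fold higher in knockout 1 (3.37 to 4.37) while C1qa stood at 0.326 of its knockout 3 level (0.128 to 0.742). The genes therefore did not keep 1 ratio across the knockouts. Within the 3 chains, H2-Aa made up 32.8%, 35.7% and 23.04% of their counts in knockouts 1, 2 and 3, and H2-Ab1 30.7%, 29.9% and 39.6%.

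**Figure D3:**
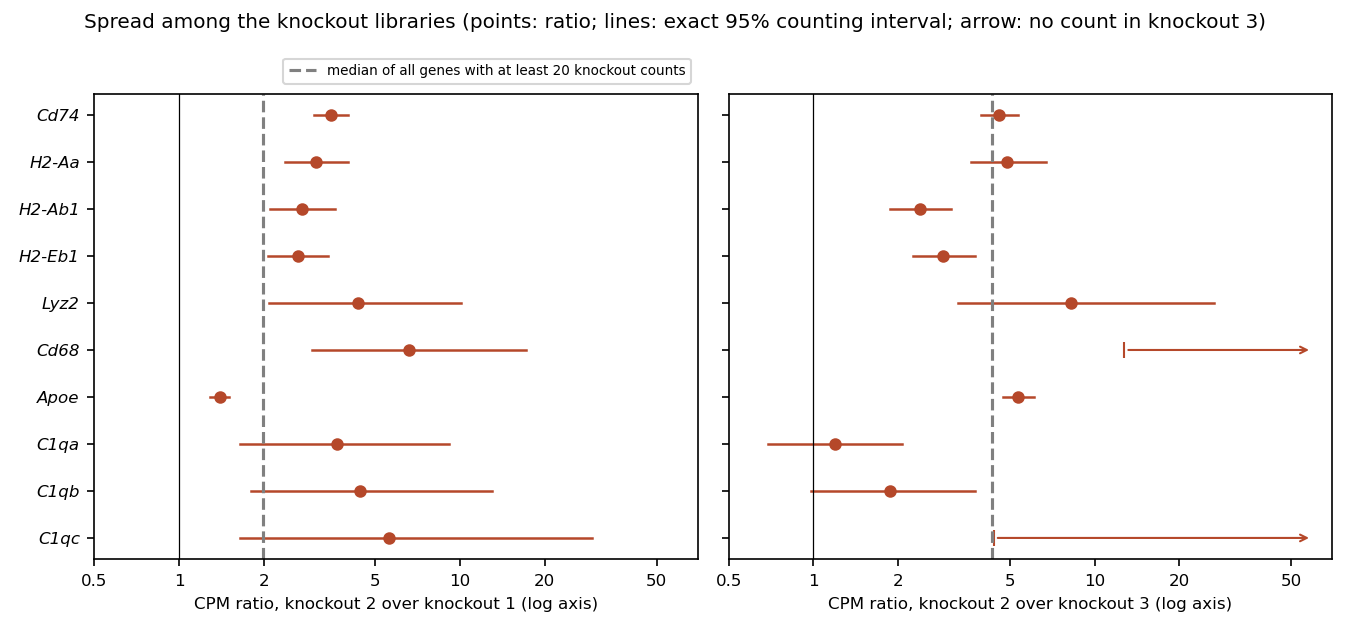
CPM ratio of knockout 2 to knockout 1 (left) and to knockout 3 (right) for each of the 10 genes on a log axis, with exact 95% counting intervals; an arrow starts at the lower limit where knockout 3 had no count, and dashed lines mark the median gene at 1.99 and 4.31. Apoe lies left of the median on the left and right of it on the right, while H2-Ab1 and H2-Eb1 do the opposite.

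Other macrophage markers were sparse, and the surface markers sparsest. The macrophage list held 27 genes, of which 5 passed the filter and none was called in either direction. They summed to 93.8, 357 and 51.7 CPM in the knockouts and to 44.4 and 250 CPM in the controls, and 21 of the 27 had no control count. The most abundant were Cd14, a co-receptor for bacterial lipopolysaccharide, with 53.9, 204 and 4.48 CPM in the knockouts and 14.8 and 0 CPM in the controls, and Coro1a, an actin regulator of blood cells, with 10.5, 49.9 and 15.8 CPM in the knockouts and no control count. Emr1, which encodes F4/80, had 3, 1 and 0 knockout counts and no control count, and Csf1r, the receptor of macrophage growth factor, had 1.58, 6.44 and 3.29 CPM in the knockouts and 0 and 13.9 CPM in the controls, the last from 1 count. Ptprc, the pan-leukocyte CD45, had 10, 72 and 3 counts in the knockouts and none in the controls. Folr2 and Timd4, markers of resident macrophages, were at 0 in all 5 libraries. Other genes of the list did have reads in the knockouts and none in the controls. Lyve1 had 8, 8 and 0 knockout counts, Mrc1 0, 4 and 1, and Laptm5 30, 132 and 33. In control 2 the list's 18 counts included 10 of Itgam and 5 of Cd163, genes that had at most 1 and 2 counts in a knockout.

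The rest of the class II pathway, a list of 16 genes, summed to 90.0, 171 and 27.8 CPM in the knockouts and to 118 and 27.8 CPM in the controls. None of the 6 tested genes of its 16 was called in either direction, with a median log2 fold change of 6.46 as fitted and -1.55 with genes at 0 in the controls set at the floor, against 0.22 and -1.14 over all tested genes. Ciita had 2, 4 and 1 counts in the knockouts and 0 in both controls. Ifi30, a lysosomal thiol reductase that unfolds antigens, had 53.6, 77.1 and 8.67 CPM in the knockouts and no control count, and its knockout mean was at least 2.16-fold higher than the floor without passing the test (adjusted p = 0.356, edgeR). Lgmn, a lysosomal protease, had 11.4, 27.7 and 2.09 CPM in the knockouts and 59.2 and 0 CPM in the controls, from 4 control counts. Genes of the interferon gamma response summed to 103, 248 and 28.7 CPM in the knockouts and 370 and 278 CPM in the controls, with none of 13 tested members called. In the class I pathway, which displays peptides made within the cell, none of 11 tested genes was called, and the median log2 fold change was 1.97 as fitted and -0.83 with genes at 0 in the controls set at the floor. H2-K1, a class I heavy chain, had 233, 516 and 108 CPM in the knockouts and 118 and 27.8 CPM in the controls. H2-D1, another heavy chain, had 131, 238 and 30.5 CPM in the knockouts and 252 and 249.98 CPM in the controls. Psmb10, a subunit of the immunoproteasome, had 122, 78.2 and 975 CPM in the knockouts and 1689 and 41.7 CPM in the controls. The log2 fold changes of these 3 genes were 1.97, -0.92 and -1.14, so they differed in sign. Among 8 tested genes of classical complement none was called, with a median log2 fold change of 6.49 as fitted and -1.99 with genes at 0 in the controls set at the floor. C3, the central complement component, had 62.8, 131 and 47.5 CPM in the knockouts and no control count, and its knockout mean was at least 3.73-fold higher than the floor (adjusted p = 0.198, edgeR).

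Lymphocyte and dendritic cell markers, whose cells also use class II or accompany those that do, were highest in the same knockout. The 8 B cell genes summed to 18.7, 89.7 and 20.6 CPM in the knockouts and to 207 and 0 CPM in the controls, where all 14 counts of control 1 fell on Cd79b. Cd79a, a chain of the B cell receptor, had 5, 35 and 1 counts in the knockouts and none in the controls. The 10 T cell genes summed to 15.5, 80.7 and 16.1 CPM in the knockouts and 207 and 125 CPM in the controls, and Cd3e, a chain of the T cell receptor complex, had 1.27, 4.203 and 0.299 CPM in the knockouts and 0 and 27.8 CPM in the controls, from 2 control counts. The 10 dendritic cell genes summed to 14.6, 70.9 and 8.67 CPM in the knockouts and 88.9 and 0 CPM in the controls, most of it Ccr7, a homing receptor, with 11.4, 63.0 and 6.28 CPM in the knockouts and 59.2 and 0 CPM in the controls. Knockout 2 was 4.80-fold, 5.20-fold and 4.86-fold above knockout 1 for the B, T and dendritic cell lists, 3.81-fold for the macrophage list and 3.14-fold for the class II members with Cd74, beside 1.99-fold for the median gene. Above knockout 3 it was 4.35-fold, 5.00-fold and 8.18-fold for the B, T and dendritic cell lists, 6.90-fold for the macrophage list and 3.83-fold for the class II members, beside 4.31-fold for the median gene. The sums of the class II members and of the B cell list thus stood above the median gene against knockout 1. Against knockout 3 the B cell sum was close to the median gene and the class II sum below it. The class II members split there, with H2-Aa (4.90-fold) and Cd74 (4.58-fold) above the median and H2-Eb1 (2.90-fold) and H2-Ab1 (2.39-fold) below. No gene of these lists was called in either direction, and their part in the level of the class II genes was not tested.

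**Figure D4:**
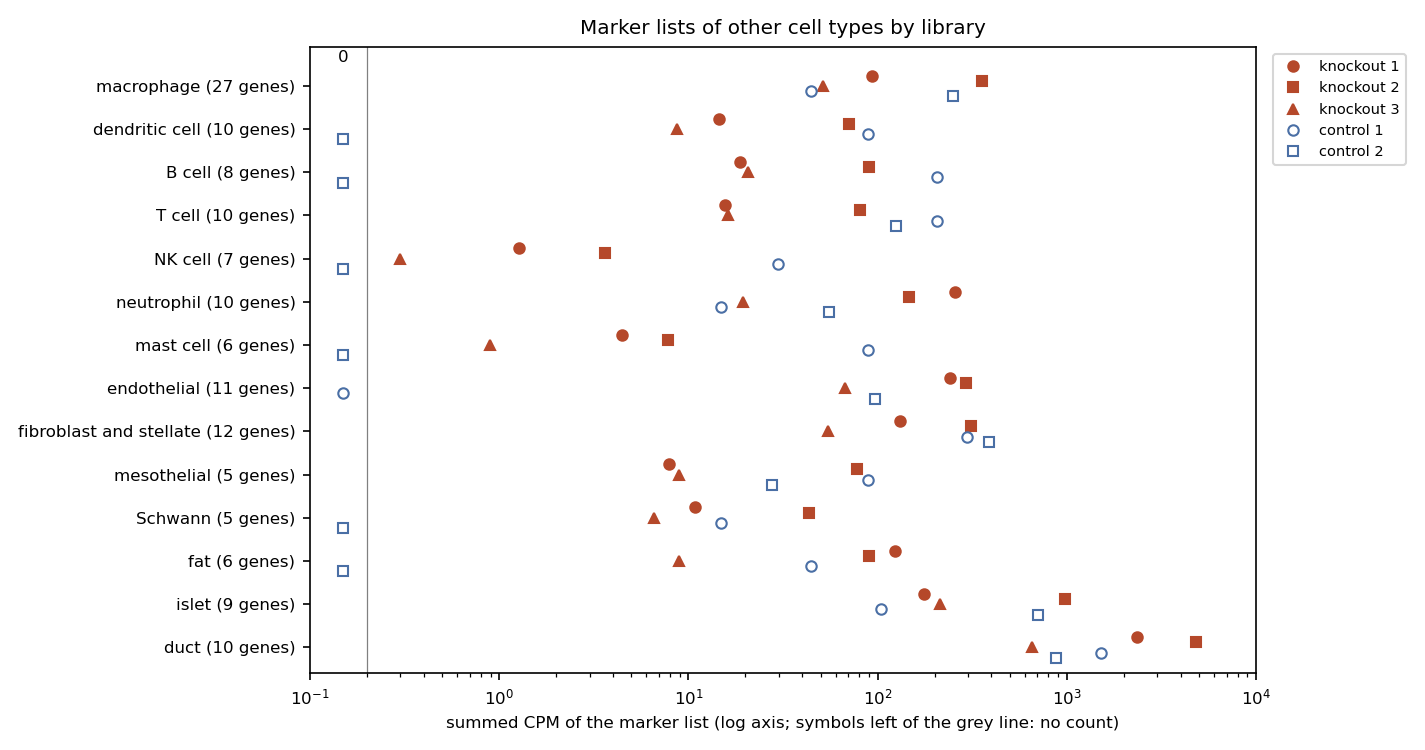
Summed CPM of marker lists of other cell types on a log axis, for knockout libraries 1 to 3 (filled red) and control libraries 1 and 2 (open blue); symbols left of the grey line stand for no count. Knockout 2 exceeds the other knockouts in every list but neutrophil and fat genes, and control 2 has no count of dendritic, B, NK, mast, Schwann or fat cell genes.

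Lists of other cells that the preparation could hold did not all keep the order of the 10 genes among the knockouts. Endothelial genes summed to 242, 295 and 67.6 CPM in the knockouts and 0 and 97.2 CPM in the controls, and fibroblast and stellate genes to 132, 310 and 55.0 CPM in the knockouts and 296 and 389 CPM in the controls. Islet genes, with 177, 983 and 215 CPM in the knockouts and 104 and 708 CPM in the controls, and mesothelial genes, with 7.92, 78.2 and 8.97 CPM in the knockouts and 88.9 and 27.8 CPM in the controls, stood higher in knockout 3 than in knockout 1. Fat genes had 124, 90.5 and 8.97 CPM in the knockouts and 44.4 and 0 CPM in the controls, so knockout 1 was highest. Knockout 1 was also highest for neutrophil genes, with 256, 146 and 19.4 CPM in the knockouts and 14.8 and 55.6 CPM in the controls, most of the knockout counts being Lcn2, which injured epithelium also makes. The receptor genes of smell, olfactory and vomeronasal, had sums of 11.7, 19.6 and 32.6 CPM in the knockouts and 1511 and 1417 CPM in the controls.

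The 5 genes outside the set whose log2(CPM + 20) profile over the 5 libraries was most like the mean profile of the 10 genes were Eef1a1, a translation elongation factor, Calr, an endoplasmic reticulum chaperone, Rplp0, a ribosomal protein, Ctsb, a lysosomal protease, and Dap. Their root mean square differences on the log2 scale were 0.164, 0.183, 0.211, 0.220 and 0.232. The median was 0.859 over the 295 genes with a knockout mean of at least 100 CPM that were compared. That limit left out the whole macrophage list, in which Cd14 was highest with a knockout mean of 87.5 CPM. Lyz2, Cd68 and the C1q genes stayed below 20 CPM in every knockout, so the added 20 flattened their differences among the knockouts. Eef1a1 had 685, 1157 and 461 CPM in the knockouts and 444 and 278 CPM in the controls. Ctsb had 84.9, 199 and 108 CPM in the knockouts and 88.9 and 69.4 CPM in the controls.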

How the data were processed

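The authors deposited raw read counts, 1 whole number for each gene symbol, not normalized and without a line for unassigned reads. HTSeq 0.9.1, a read counter, TopHat2 2.1.1, an aligner, and Cuffdiff 2.2.1.5 and Cuffnorm 2.2.1.2 are named in the submitters' processing notes, as is the genome build mm9, with no order of steps. For the annotation, the strand setting and reads that match several genes, the choice made is not given in the sources used here. The TruSeq v2 kit of the labels' protocols selects polyadenylated RNA and keeps no strand information.

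CPM divides by a library's total after Rn45s and Lars2 are taken out. edgeR 4.0.16 in R 4.3.3 fitted the counts by group alone (robust glmQLFit, then a two-sided glmQLFTest) on the same totals, without further scaling factors, after filterByExpr, and calls are at a Benjamini-Hochberg adjusted p under 0.05. The test was tried on simulated counts first. Alternatives were DESeq2 1.42.0, limma-voom (limma 3.58.1), other scalings and filters, a replicate block and each library left out. Ratios of pooled CPM and Poisson intervals are exact at 95%.

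The members and the 22 gene lists were chosen with earlier results of these data known. Genes named besides the members follow a rule set with the design: Arid1a, 7 fixed markers (Ptprc, Adgre1 under its older symbol Emr1, Csf1r, Lyz1, Ciita, Cd79a and Cd3e), from each list up to 3 called genes or else the 2 most abundant in the knockouts, and the 5 with the most similar profile. Folr2, Timd4, Lyve1, Mrc1, Laptm5, Itgam, Cd163 and H2-D1 were named after their values were seen. Exon lengths and shared words of 50 bases came from GENCODE M21, a later build than mm9, and promoter sequences from RefSeq GRCm38.p6, matched by symbol. The promoter windows stop at the start site.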

Additional observations from a re-analysis of the deposited data

How the results depend on the processing

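Genes called higher numbered 16 and genes called lower 133. They became 147 and 71 with TMM without Rn45s and Lars2, 5 and 27 with TMM on the whole table, 33 and 234 with totals without the enzyme list, 479 and 450 with DESeq2, and 0 and 43 with limma-voom (773 genes at an unadjusted p under 0.05). Genes called lower also became 81 with RLE factors, 354 with upper quartile factors, 898 without a low-count filter and 388 with 1 CPM in 2 libraries. With each library left out in turn, the calls ran from 0 (without knockout 1) to 19 higher and from 4 (without knockout 1) to 378 (without control 1) lower. With the replicate block they were 4 and 5. Deviations of same-numbered libraries had correlations over 301 genes of -0.0640 for number 1 and -0.0207 for number 2. With 2 controls the deviations of one mirror those of the other, and control counts are few. The check therefore cannot decide whether same-numbered libraries belong together. Members called numbered 0, and 2 with TMM without Rn45s and Lars2, 4 with DESeq2 and 0 to 1 with a library left out. Of 104 fold changes of single members under an alternative, 93 kept their direction and side of the threshold, 7 passed the threshold and 4 turned sign: Cd74 to -0.20 without control 2 and -0.18 without knockout 2, C1qa to 7.06 without control 2 and C1qb to 6.66 without control 1. With each library left out, the log2 fold change ran from -0.20 to 11.49 for Cd74. It ran from -3.08 to 7.06 for C1qa and from -3.16 to 6.66 for C1qb. The upper ends came from fits whose lone control held no count of the gene, so their size has no measured control level behind it. The median log2 fold change of all tested genes was itself 6.06 without control 1 and 5.57 without control 2. The summed level of the 10 genes was 3.11 times higher in the knockouts than in the controls, 12.9 times with Rn45s and Lars2 in the totals, and 1.82 to 10.7 times with a library left out. The highest knockout was 4.40 times the lowest, 1.93 times with totals without the enzyme list, 3.81 times without Apoe and 2.00 to 4.40 times with a library left out. Some shifts follow from fewer samples or tested genes; for the rest the cause was not tested. Control depth limits every comparison with the controls: a level under 21.5 CPM in the controls could not be told from 0.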
